A study of Homo sapiens with 8 samples.

Results

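The S100 genes encode small calcium-binding proteins of the EF-hand type, and 10 of them were followed here: S100A4, S100A6, S100A8, S100A9, S100A10, S100A11, S100A12, S100A13, S100A16 and S100P. They were taken by name, as all probe sets (groups of short probes that report 1 transcript) whose platform annotation lists exactly 1 gene symbol, equal to that of a member. All 10 genes were found, with 14 probe sets of the 54675 in the table, and they are 10 of the 19775 genes compared. The tested cultures received 1 µM beta-estradiol and the controls the ethanol vehicle, both for 6 h, with 4 arrays a group that the sample titles call biological replicates. All 8 came from K562, an established human leukaemia line (chronic myeloid leukaemia, blast crisis) with erythroid features. Every culture, controls included, stably carried a fusion of p42-C/EBPα with the oestrogen receptor (ER). C/EBPα is a transcription factor of granulocyte differentiation, p42 its full-length form, and the receptor's ligand moves such a fusion into the nucleus. The labels name no cells without the fusion, so the effect of estradiol alone was not measured, and they do not say whether the line was a clone or a pool, or what promoter drove the transgene.

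On binding calcium most S100 proteins turn outward a greasy surface that grips a partner, often an annexin, a cytoskeletal protein or, once released from the cell, a surface receptor such as AGER. Neutrophils and monocytes are known for very high S100A8, S100A9 and S100A12, which act as alarm signals and, for S100A8 with S100A9 (calprotectin), also withhold metals from microbes. Apart from S100P, whose gene lies on chromosome 4, the members stand along chromosome 1 in the order S100A10, S100A11, S100A9, S100A12, S100A8, S100A6, S100A4, S100A16 and S100A13, with other genes between some of them.

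Of the 10 members, S100P and S100A11 were called higher with estradiol and 0 were called lower, by limma over all 19775 genes at a Benjamini-Hochberg adjusted p below 0.05. Over all genes 17.9% were called, 8.29% higher and 9.6% lower, so the 2 of 10 members called were near the background. The median log2 fold change was 0.10 over the members and −0.03 over all genes. S100P rose 1.55-fold and S100A11 rose 1.23-fold. The calcium-independent annexin partner S100A10, the phagocyte genes S100A8, S100A9 and S100A12, and S100A4, S100A6, S100A13 and S100A16 did not pass the test. Of the 14 member probe sets tested among all 54613, 2 were called higher and 0 lower, where 10.4% of all probe sets were called, 5.32% higher and 5.06% lower.

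The arrays had medians of 4.97 to 5.08 and lower quartiles of 3.67 to 3.74 on the log2 scale, and their number limits the precision of every value. Of 6 measured K562 markers 5 had mean levels above 8, and 4 were called lower with estradiol: the erythroid regulator GATA1 (−0.89), the embryonic globin HBE1 (−0.17), BCR (−0.22) and ABL1 (−0.23). Of the other measured markers, TFRC differed by 0.08, with groups that did not overlap, and HBZ by −0.04, and neither was called. The part of these K562 markers in the S100 values was not tested. The genes of the fusion partners, CEBPA and ESR1, differed by −0.02 ± 0.07 and 0.04 ± 0.06 (log2, SE), and neither was called. ESR1 has 9 probe sets, with mean levels of 2.53 to 8.75 with estradiol and log2 differences of −0.12 to 0.11, none called. How far these probe sets read the fusion transgene or the cell's own genes was not tested. No detection calls were used, so levels near the lower quartile were not shown to be above background. In these bulk samples fewer cells with a transcript and less of it per cell cannot be told apart.

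**Figure D1:**
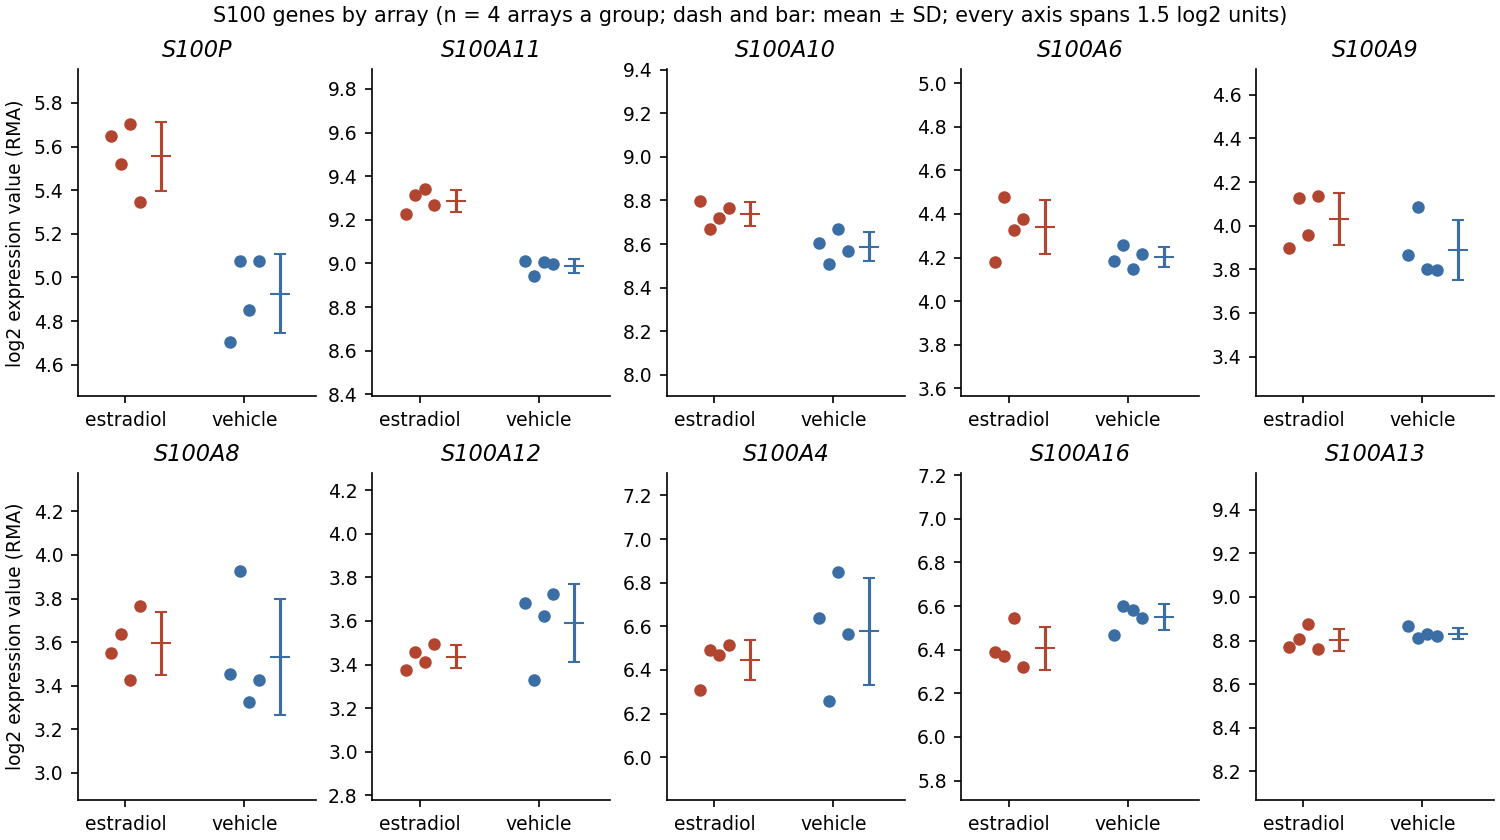
Log2 expression value of each S100 gene on each array (vertical axis, RMA log2 units), with the 4 estradiol arrays left and the 4 vehicle arrays right and the mean ± SD beside the points. S100P and S100A11 show a wide gap between groups, S100A10 a gap that is nearly closed, and the other 7 genes overlap.

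S100P, a member first found in placenta that binds ezrin and, outside the cell, AGER, showed the largest response. Its log2 levels were 5.65, 5.52, 5.71 and 5.34 on the 4 estradiol arrays, against 4.70, 5.07, 4.85 and 5.08 on the 4 vehicle arrays. Every estradiol array lay above every vehicle array. The means were 5.56 ± 0.16 with estradiol and 4.93 ± 0.18 with vehicle (SD, n = 4 each), a log2 fold change of 0.63 ± 0.11 (SE, limma adjusted p = 0.00293). The 95% interval of the log2 fold change ran from 0.39 to 0.87. Of all genes 1.75% had a larger rise. The vehicle levels stood near or below the array medians, and S100P has a single probe set, so no second measurement of the gene was at hand. S100PBP, a nuclear protein that binds S100P and was named after its values had been seen, had 8.82 ± 0.05 with estradiol and 8.64 ± 0.08 with vehicle (SD, n = 4 each), a log2 difference of 0.18 ± 0.05 (SE, adjusted p = 0.0373 among genes). Among all probe sets its brighter one missed the threshold (adjusted p = 0.0785). Its other one, with 0.20 ± 0.05, passed by a narrow margin (adjusted p = 0.0499).

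The 250 bases before the S100P start site, before that of S100A11, the other called member, and before that of S100A12, the phagocyte gene with the most matches, are shown because the fusion partner is a DNA-binding factor. They are RefSeq sequences on GRCh38.p14, at chr4:6693628-6693877 (plus strand), chr1:152037005-152037254 (minus strand) and chr1:153375622-153375871 (minus strand), written 5′ to 3′ along the gene, with capitals for matches to the motifs searched.
S100P: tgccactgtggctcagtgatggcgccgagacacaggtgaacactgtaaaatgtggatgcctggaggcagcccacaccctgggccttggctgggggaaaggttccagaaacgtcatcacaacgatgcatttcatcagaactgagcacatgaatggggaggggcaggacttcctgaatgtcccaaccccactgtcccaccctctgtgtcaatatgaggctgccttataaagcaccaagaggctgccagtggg
S100A11: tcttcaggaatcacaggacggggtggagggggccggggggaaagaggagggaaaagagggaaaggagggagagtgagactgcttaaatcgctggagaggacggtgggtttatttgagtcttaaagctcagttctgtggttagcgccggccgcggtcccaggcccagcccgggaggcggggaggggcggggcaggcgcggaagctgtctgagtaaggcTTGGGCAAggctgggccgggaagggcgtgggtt
S100A12: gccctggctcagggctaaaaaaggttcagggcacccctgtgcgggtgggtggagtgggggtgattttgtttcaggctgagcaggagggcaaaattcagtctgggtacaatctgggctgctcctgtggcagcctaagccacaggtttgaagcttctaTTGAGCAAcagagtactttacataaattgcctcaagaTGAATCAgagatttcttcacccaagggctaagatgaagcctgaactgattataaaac

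The motifs, searched on both strands, were TTGCNNAA for C/EBP and TGANTCA for AP-1. A C/EBP match stood in 9.05% of the 35116 upstream windows of RefSeq genes and an AP-1 match in 6.57%. All 10 members were matched to the table, with 15 windows, since some genes have several start sites. The S100A11 window held 1 C/EBP match, TTGGGCAA, from base 33 to base 26 before the start. S100A12 held TTGAGCAA from base 94 to base 87 and the AP-1 match TGAATCA from base 57 to base 51, which do not overlap. The other 8 members, S100P among them, held none of these letters in these windows, which says nothing of whether a factor binds there.

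S100A11, also called calgizzarin, binds annexin A1 and takes part in membrane repair and growth control. Its log2 levels were 9.23, 9.32, 9.34 and 9.27 on the estradiol arrays, against 9.01, 8.94, 9.01 and 8.999 on the vehicle arrays. The groups did not overlap, and the spread within each was small. Means were 9.29 ± 0.05 with estradiol and 8.99 ± 0.03 with vehicle (SD, n = 4 each). The log2 fold change was 0.30 ± 0.04 (SE, limma adjusted p = 0.00119), with a 95% interval of 0.20 to 0.40. A larger rise was seen in 5.06% of all genes. S100P and S100A11 kept their calls with each of the 8 arrays left out in turn.

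S100A10 lies beside S100A11 on the chromosome. It has lost calcium binding and is held in a complex with annexin A2, which it ties to channels and to plasminogen at the cell surface. Its brighter probe set had 8.80, 8.67, 8.72 and 8.76 with estradiol, against 8.61, 8.51, 8.67 and 8.57 with vehicle. The lowest estradiol array, at 8.669, lay just above the highest vehicle array, at 8.668. Means were 8.74 ± 0.06 and 8.59 ± 0.07 (estradiol and vehicle, SD, n = 4 each), and the log2 difference of 0.15 ± 0.05 (SE) did not pass (limma adjusted p = 0.0763, 95% interval 0.04 to 0.26). S100A10 passed under 4 of 19 alternatives and was not called under the other 15. It passed with cyclic loess scaling (adjusted p = 0.0404) and with a variance trend and robust fit (0.0235). It also passed with only genes of a mean of at least 5 or 6 (0.0362 and 0.0208), where fewer genes are tested. Fits with a single array left out called it 0 times (adjusted p from 0.0637 to 0.181). Nor was it called with the replicate block (0.118) or the mean of all probe sets (0.173). The dimmer probe set of the gene differed by 0.07 ± 0.09.

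With S100A10, 3 of the 10 members had groups that did not overlap, as did 24.1% of all genes, so this share too was near the background. The same held for 3 of the 14 member probe sets, and for 17.5% of all probe sets. Each probe set's interval is drawn in the plot of fold changes.

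**Figure D2:**
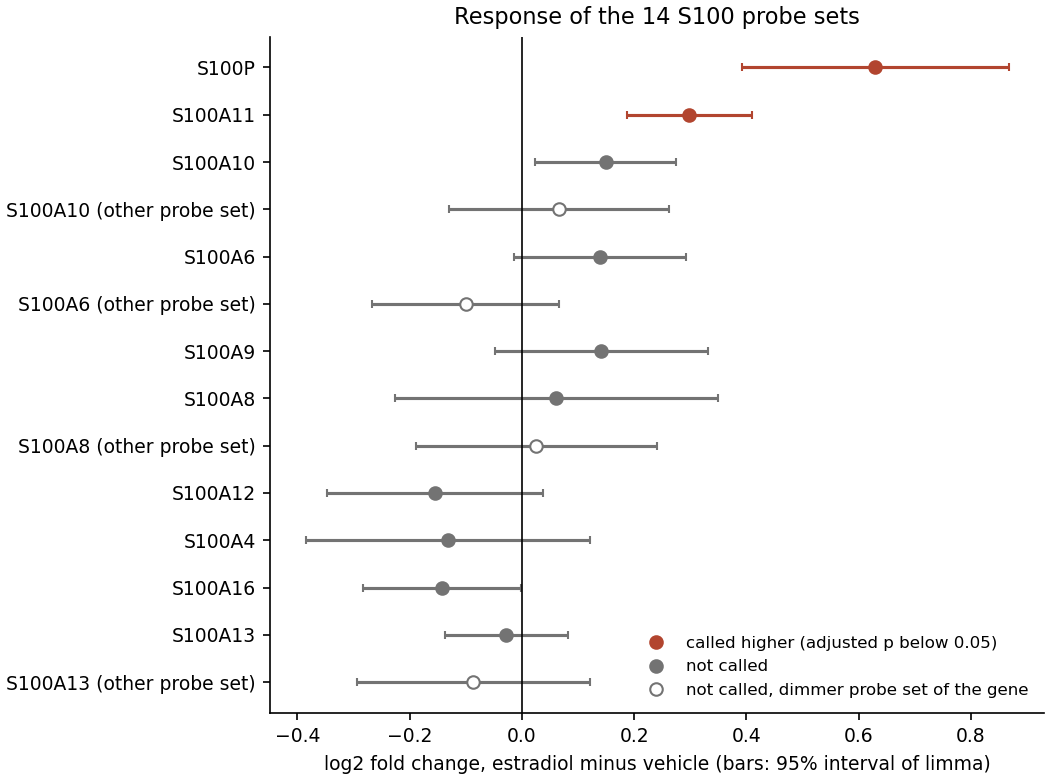
Log2 fold change, estradiol minus vehicle (horizontal axis), of each of the 14 S100 probe sets with its 95% interval from limma over all probe sets. Filled points are the probe sets that stand for a gene and open points its dimmer ones. S100P (0.63) and S100A11 (0.30), in red, are called higher, and the other 12 probe sets, in grey, lie between −0.16 and 0.15.

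S100A6, calcyclin, binds annexins and the ubiquitin ligase adaptor CACYBP. The probe set that stands for it read 4.18, 4.48, 4.33 and 4.38 with estradiol, against 4.18, 4.26, 4.15 and 4.22 with vehicle. Of the estradiol arrays 3 lay above every vehicle array, and replicate 1 lay among them. The log2 difference was 0.14 ± 0.06 (SE, adjusted p = 0.203, 95% interval −0.01 to 0.28). Its dimmer probe set went the other way, by −0.10 ± 0.07, and was not called.

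The phagocyte genes were dim in both groups. S100A8 read 3.55, 3.64, 3.43 and 3.77 with estradiol, against 3.46, 3.92, 3.33 and 3.43 with vehicle. The vehicle replicate 2 value was the highest of all 8. The log2 difference was 0.06 ± 0.13 (SE, adjusted p = 0.822, 95% interval −0.23 to 0.35), and 0.03 ± 0.10 on the dimmer probe set. S100A9 read 3.90, 4.13, 3.96 and 4.14 with estradiol, against 3.87, 4.09, 3.80 and 3.80 with vehicle, where replicate 2 again stood above the other 3. Its log2 difference was 0.14 ± 0.08 (SE, adjusted p = 0.319, 95% interval −0.05 to 0.33), and it was called only with array quality weights (0.23, adjusted p = 0.0379). S100A12, also named calgranulin C, read 3.38, 3.46, 3.41 and 3.50 with estradiol, against 3.68, 3.33, 3.62 and 3.73 with vehicle. Here vehicle replicate 2 was the lowest of all 8 arrays, while the other 3 vehicle arrays lay above every estradiol array. The log2 difference of S100A12 was −0.16 ± 0.08 (SE, adjusted p = 0.279, 95% interval −0.34 to 0.03).

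Vehicle replicate 2 thus bore on these dim genes. Without it S100A12 was called lower, at −0.24 (adjusted p = 0.00920), and with array quality weights likewise, at −0.20 (adjusted p = 0.0436). Without vehicle replicate 2 S100A8 and S100A9 differed by 0.19 and 0.21, neither called (adjusted p = 0.166 and 0.0808). The upper quartile of that array was 6.90, against 6.95 to 7.03 on the other 7, and the part of this in the S100 values was not tested. The levels of S100A8, S100A9 and S100A12 were not shown to be above background, and RMA understates changes of dim genes. Of 5 measured markers of mature neutrophils 0 were called, and their mean level ran from 4.38 to 4.47 with estradiol and from 4.37 to 4.51 with vehicle. The 3 measured markers of monocytes and macrophages also had 0 calls, with a mean of 4.70 to 4.82 with estradiol and 4.68 to 4.82 with vehicle.

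The remaining members were S100A4, S100A16 and S100A13. S100A4, a regulator of non-muscle myosin and cell motility, read 6.31, 6.49, 6.47 and 6.51 with estradiol, against 6.64, 6.26, 6.85 and 6.57 with vehicle. The vehicle arrays spread over a range that held all 4 estradiol arrays. The log2 difference was −0.13 ± 0.11 (SE, adjusted p = 0.525, 95% interval −0.39 to 0.12), or −0.24 without vehicle replicate 2 (adjusted p = 0.0853) and −0.04 without vehicle replicate 3. S100A16, a member expressed in many tissues, read 6.39, 6.37, 6.54 and 6.32 with estradiol, against 6.47, 6.60, 6.58 and 6.55 with vehicle. Of the estradiol arrays 3 lay below every vehicle array. The log2 difference was −0.14 ± 0.06 (SE, adjusted p = 0.144, 95% interval −0.27 to −0.01), and S100A16 was called lower without estradiol replicate 3 (−0.19, adjusted p = 0.0447). S100A13, which helps export proteins that lack a signal peptide such as FGF1 and IL1A, read 8.77, 8.81, 8.87 and 8.76 with estradiol, against 8.86, 8.81, 8.83 and 8.82 with vehicle. Its groups overlapped throughout, with a log2 difference of −0.03 ± 0.04 (SE, adjusted p = 0.741). The 95% interval ran from −0.12 to 0.07, and its dimmer probe set showed −0.09 ± 0.09.

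Along the chromosome S100A10 and S100A11 stand side by side with log2 differences of 0.15 and 0.30, and S100A9, S100A12 and S100A8 with 0.14, −0.16 and 0.06. Of these 5 only S100A11 was called. Whether these differences differ from each other was tested for 1 such pair only, the chains of calprotectin.

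Within each array the log2 value of 1 partner was taken from that of another, for 3 pairs known to bind each other, and compared between groups by a two-sided exact permutation test over the arrays. The smallest p that 4 against 4 arrays allow is 0.0286. After adjustment over the 3 pairs, a pair can pass only if another pair also reaches that smallest p. The pairs were chosen with earlier results of these data known, so the adjusted values are not independent support. S100A8 minus S100A9 averaged −0.43 ± 0.09 with estradiol and −0.35 ± 0.13 with vehicle (SD, n = 4 each). The shift was −0.08 ± 0.08 (SE, exact p = 0.457, or 0.457 adjusted over the 3 pairs), so a difference in response between the calprotectin chains was not detected. The shift was −0.02 without vehicle replicate 2 and −0.12 without vehicle replicate 3, and with other single arrays left out it lay between −0.11 and −0.05. S100A10 minus ANXA2 averaged −3.28 ± 0.05 with estradiol and −3.44 ± 0.05 with vehicle, a shift of 0.16 ± 0.03 (SE) seen as 4 estradiol arrays above 4 vehicle arrays (exact p = 0.0286, adjusted 0.0429). ANXA2 itself differed by −0.01 ± 0.04 and was not called. S100A11 minus ANXA1 averaged −2.93 ± 0.10 with estradiol and −0.01 ± 0.07 with vehicle, a shift of −2.92 ± 0.06 (SE, exact p = 0.0286, adjusted 0.0429). The rise of ANXA1, 3.22 ± 0.06 on the log2 scale, was thus far larger than that of S100A11. When the probe sets of a gene were averaged, neither of the annexin shifts passed. They were 0.11 for S100A10 minus ANXA2 (adjusted exact p = 0.114) and −2.30 for S100A11 minus ANXA1 (adjusted exact p = 0.0857). S100A8 minus S100A9 then shifted by −0.098 (adjusted exact p = 0.0857) and did not pass either. The −2.30 shift could not pass there, because no other pair also reached the smallest p of the exact test.

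**Figure D3:**
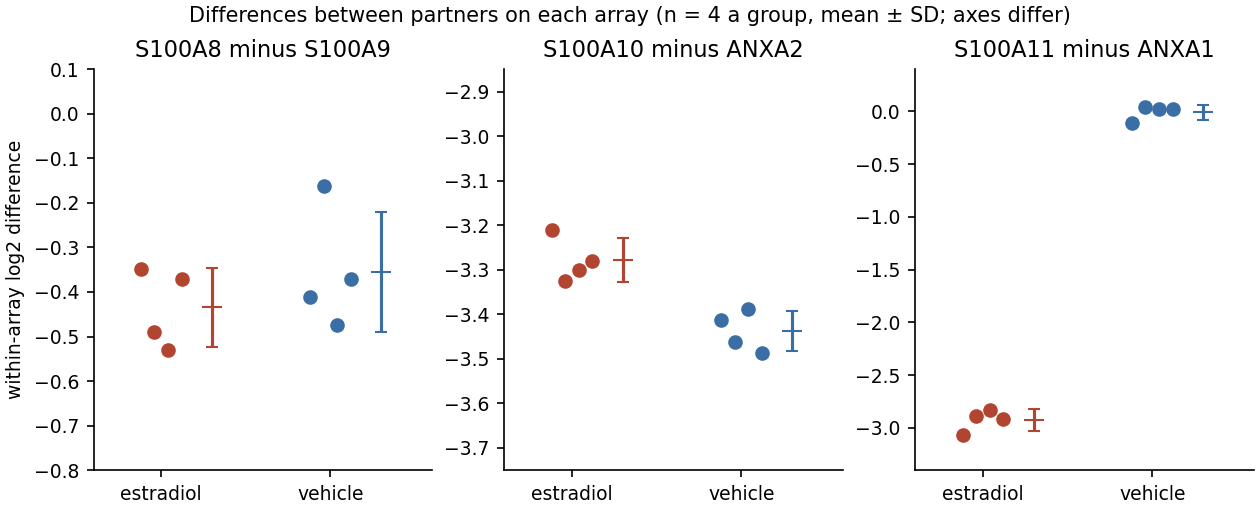
Within-array log2 difference between binding partners (vertical axis, log2 units, a different range in each panel) on the 4 estradiol arrays, left, and the 4 vehicle arrays, right, with mean ± SD. S100A8 minus S100A9 overlaps between groups, while S100A10 minus ANXA2 is higher and S100A11 minus ANXA1 is 2.92 lower with estradiol.

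Of the 10 other S100 genes, among them the brain protein S100B and the skin protein S100A7, 10 were measured and 0 were called in either direction. Their log2 differences ran from −0.12 to 0.14 with a median of −0.01, and 7 of the 10 had mean levels below 5. S100B had the smallest p, with 0.14 ± 0.08 (adjusted p = 0.302) and −0.11 on its other probe set.

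Annexins and other carriers of S100 proteins gave 2 rises and 0 falls among 8 measured genes, with a median of −0.0036. Beside ANXA1, the annexin ANXA5, which binds phosphatidylserine, rose by 0.20 ± 0.05 (adjusted p = 0.0265), a call that was not made among all probe sets. The other 6, ANXA2, ANXA6, ANXA7, ANXA11, AHNAK and DYSF, were not called.

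Surface partners of S100 proteins moved both ways, with 3 rises and 1 fall among 11 measured (36.4% called, median −0.10). PLAUR, the urokinase receptor that works beside S100A10 in plasmin formation, had 8.10, 8.09, 7.91 and 8.001 with estradiol, against 7.34, 7.37, 7.30 and 7.24 with vehicle, a 1.64-fold rise (adjusted p = 3.19e-05). ALCAM, an adhesion molecule reported to bind S100 proteins, rose 1.603-fold from dim vehicle levels of 3.99 to 4.44. PLAUR and ALCAM were each called on 2 of 3 probe sets. BSG, or basigin, a receptor for S100A9, rose by 0.22 ± 0.05. MCAM, an adhesion molecule that also binds S100A8 with S100A9, had 6.59, 6.65, 6.76 and 6.62 with estradiol, against 7.34, 7.29, 7.32 and 7.27 with vehicle, a change of −0.65 ± 0.05 (adjusted p = 2.10e-05), which its dimmer probe set did not show (−0.03). The pattern receptors AGER and TLR4, which bind released S100 proteins, differed by −0.10 ± 0.07 and 0.16 ± 0.14 without passing the test.

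Among 19 measured intracellular targets 3 rose, 2 fell and 14 were not called, with a median of 0.05. The scaffold IQGAP1, which binds S100P, rose by 0.30 ± 0.06 and by up to 0.75 on its other probe sets, all 3 of them called. EZR, or ezrin, the actin linker that S100P activates, rose by 0.24 ± 0.04 (adjusted p = 0.00546), with 2 of its 5 probe sets called and log2 differences of 0.12 to 0.25 over the 5. The chaperone partner FKBP4 fell by 0.34, and the non-muscle myosin heavy chain MYH10 fell by 0.25, each with 1 probe set that was not called. CACYBP, the partner of S100A6, and MYH9, the myosin chain bound by S100A4, differed by 0.0065 ± 0.04 and −0.0014 ± 0.05. Of 5 measured genes of the phagocyte oxidase, to which S100A8 and S100A9 deliver lipid, RAC2 fell by 0.52 and the other 4 were not called.

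Other EF-hand proteins showed 3 rises and 3 falls among 26 measured (23.1% called, median −0.04). The calcineurin subunit PPP3R1 and the nucleobindin NUCB2 rose by 0.48 ± 0.07 and 0.40 ± 0.06, while the calmodulin-like CALML4 fell by 0.38 and the reticulum protein RCN1 fell by 0.29. PPP3R1 and NUCB2 were each called on 1 of 2 probe sets and CALML4 on 3 of 5.

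Genes around the S100 cluster were mostly uncalled, with 1 fall, UBAP2L at −0.18 ± 0.04 (2 of its 4 probe sets called), and 0 rises among 23 measured (4.35% called, median −0.04). Around S100P on chromosome 4, 1 of 13 measured genes rose, MAN2B2 by 0.23 ± 0.06, and 2 fell, GRPEL1 by 0.52 and TBC1D14 by 0.30. The single MAN2B2 probe set just missed the threshold among all probe sets (adjusted p = 0.0508). The direct neighbour MRFAP1L1 differed by −0.12 ± 0.04 and was not called (adjusted p = 0.0651). All of these lists were drawn up with earlier results of the data known, and their shares of calls stand beside 17.9% over all genes.

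**Figure D4:**
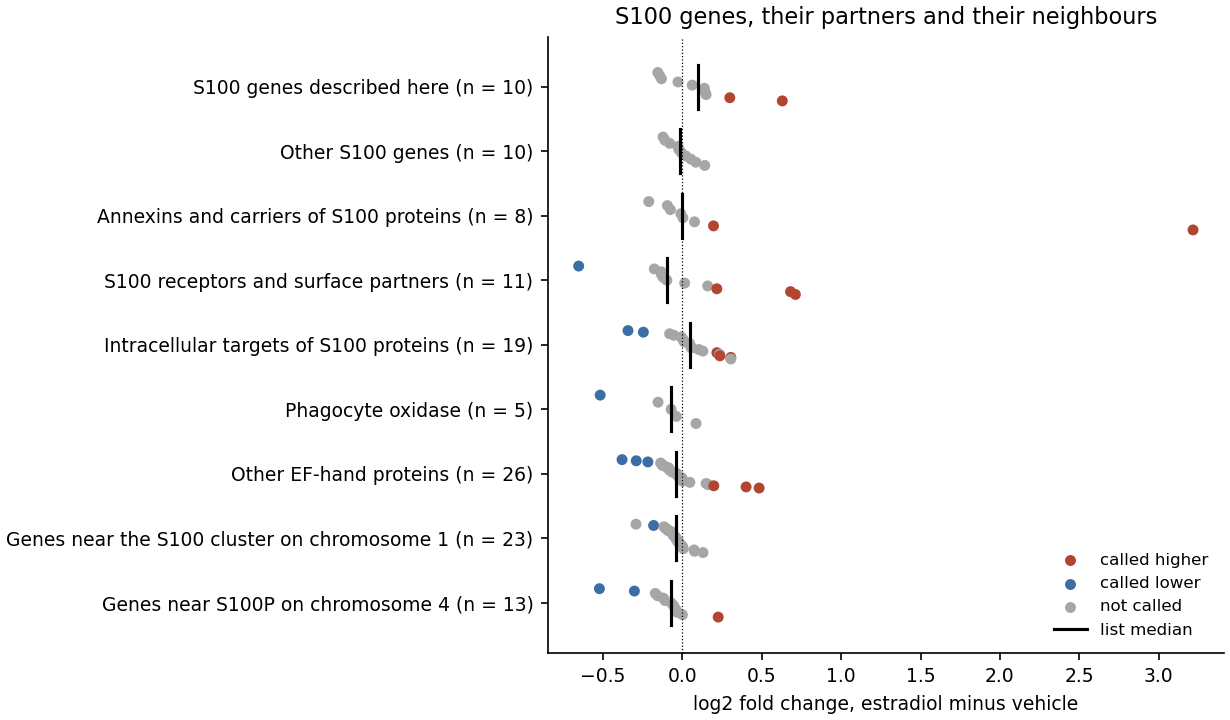
Log2 fold change, estradiol minus vehicle (horizontal axis), of the 10 S100 genes and of each measured gene in 8 lists of relatives, partners and neighbours. Points are genes, red for called higher, blue for called lower and grey for not called, and black bars are list medians, which run from −0.10 to 0.10. ANXA1 stands apart at 3.22.

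The genes whose log2 values followed S100A11 most closely over the 8 arrays were QPRT, an enzyme of nicotinamide nucleotide synthesis (Pearson r = 0.994), the long non-coding RNA GIHCG (0.994), CALB1, the EF-hand protein calbindin (0.994), MSRB1, a methionine sulfoxide reductase (0.989), and VAPA, a membrane contact protein (0.989). These coefficients are a description without a test, because all 8 arrays share the split between estradiol and vehicle. The size of response differed among them. CALB1 rose by 1.18, with mean levels of 5.68 with estradiol and 4.51 with vehicle, and MSRB1 by 0.62. QPRT, GIHCG and VAPA rose by 0.23, 0.19 and 0.26 (log2). These genes were picked for following S100A11, whose groups did not overlap, so a difference between groups was largely fixed by the choice.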

How the data were processed

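RNA of 4 estradiol and 4 vehicle cultures was measured on arrays after amplification of 200 ng of total RNA, per the labels' protocols. The authors deposited log2 values from RMA (version not stated), per the submitters' processing notes. RMA corrects background, brings arrays to a common distribution and summarizes probes, so a change shared by most genes is hidden. Chip definition and genome build: not given in the sources used here. Over the 8 arrays the values ran from 1.92 to 14.39.

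The platform annotation gave 1 gene symbol to 41097 of 54675 probe sets, several to 1801 and none to 11777, and 62 were controls. Where a gene had several, the brightest on average was used. Genes, and separately the 54613 probe sets that are not controls, were tested with limma 3.58.1 in R 4.3.3 (lmFit and eBayes, no block, no filter, two-sided, Benjamini-Hochberg). Errors are SDs for levels and moderated SEs for differences. P-values reflect the spread between these arrays alone, which may be technical, as nothing says how the cultures were separated. The test was checked on simulated data with independent errors and far fewer changed genes than were called here, a simpler setting than these arrays.

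All members were named, with each probe set. From each list up to 4 called genes with the largest change were named, or that with the smallest p. Genes named besides were chosen after their values were seen, as background on the binding partners. For the called member with the smallest adjusted p in each direction, the 5 genes of highest correlation were named. Members, lists, pairs and tests were chosen with earlier results of these data known. Of 126 list genes 115 were measured and the rest not analysed here. Alternatives covered a replicate block, scalings, filters, variance models, array weights, thresholds and each array left out. Figures used matplotlib 3.10.9.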

Additional observations from a re-analysis of the deposited data

Results flagged for a closer look

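In 86 groups of 4 arrays, those of the 14 S100 probe sets and of the other genes considered for naming, 3 had an array whose gap to the nearest other exceeded 0.829 of the range of the group. Chance gives about 1 in 20 such groups. In vehicle replicate 2 S100A11 was 8.940, with 8.999 to 9.009 on the rest of the vehicle arrays. S100PBP was 8.749 in estradiol replicate 3, against 8.84 to 8.85 in the other estradiol arrays, on its brighter probe set. In vehicle replicate 4 TBC1D14 was 8.948, with 8.80 to 8.81 on the rest of that group.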

How the results depend on the processing

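S100P was called under all 18 alternatives that tested it, at log2 fold changes of 0.56 to 0.70 and adjusted p from 0.000229 to 0.0259, and was not tested with genes of a mean of at least 6. S100A11 stayed between 0.28 and 0.33, at adjusted p from 9.52e-06 to 0.0147, and lost its call only under a limit of 1.5-fold, which left 1 member gene and 1 member probe set called higher. Member genes called lower numbered 1 (S100A12) with array quality weights and 0 to 1 with single arrays left out, and member probe sets also 0 to 1 with single arrays left out. In each fit without 1 array 2 member genes and 2 member probe sets were called higher. Member genes called higher numbered 3 with cyclic loess, the filter at 5, the variance trend or array weights. At an adjusted p below 0.01 there were 1040 genes higher and 1139 lower, and 1736 and 1529 probe sets. With at least a 1.5-fold change these were 385 and 191 genes, and 901 and 349 probe sets.

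The direction turned for S100A8 without vehicle replicate 3 (−0.0074, within −0.01 to 0.19 over the arrays left out) and for S100A13 with median centring (0.0042), both uncalled, and the cause was not tested. Samples of the same number did not clearly deviate together (correlations of −0.05, −0.21, 0.09 and 0.11). Only in replicate 3 was the own number the best match (0.09, against at most 0.06 for other numbers). The main test used no pairing, and nothing says whether the cultures were paired. With the replicate block the members called stayed S100P and S100A11, and probe sets called lower numbered 1676 against 2765. A sign-flip test over the 4 replicate block pairs cannot pass, and gave adjusted p = 0.188 for the shifts of 0.16 (S100A10 minus ANXA2) and −2.92 (S100A11 minus ANXA1). With the mean of all probe sets these shifts were 0.11 and −2.30, neither called. There the −2.30 shift could not pass the adjusted exact test, as no other pair reached its smallest p. The lack of detection calls limits what can be said of S100A8, S100A9 and S100A12.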
